A study of Mus musculus with 17 samples.

Results

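The expression of 10 cytosolic and mitochondrial heat shock genes was followed in the islets of 17 mice. They are *Hspa1a*, *Hspa1b*, *Hspa8*, *Dnajb1*, *Hsph1*, *Hsp90aa1*, *Hspb1*, *Hspd1*, *Hspe1* and *Bag3*, and were picked out by their symbols. All 10 had a row in both deposited count tables, which hold 78239 and 73212 gene identifiers, and all 10 passed the filter on low counts in both. Bulk RNA-seq of isolated islets from male mice was deposited in these 2 tables, each of which was normalized and tested on its own. The labels call the libraries of a group biological replicates and do not say whether each came from 1 animal, so that "mouse" below stands for 1 library. The first table asks how islets that carry a *Pax4* risk allele respond to a high-fat diet (HFD), and the second, in which all mice were fed HFD, compares islets that lost *Pax4* in adulthood with islets that kept it.

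In the first table, *Pax4* HH mice were homozygous for a knock-in of the mouse counterpart of the human PAX4 R192H allele, and *Pax4* WT mice carried no copy. Both were studied on a standard chow diet (SCD) at 12 weeks of age and after 4 weeks of HFD at 16 weeks of age, with 3 mice in each of the 4 groups, so a difference between the diets is also one of age. In the second table, 3 *Pax4*-BiKO mice carried floxed *Pax4* alleles and *Pdx1*-CreERT2, a tamoxifen-activated Cre recombinase expressed from the *Pdx1* promoter. The 2 Control mice carried the floxed alleles without Cre. Both groups had received tamoxifen and were 20 weeks old after 8 weeks of HFD, so the loss of *Pax4* changed together with the presence of Cre.

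Heat shock proteins are chaperones that hold unfolded proteins, refold them or pass them on for degradation. Their genes are controlled by heat shock factors such as HSF1, which bind repeats of the unit GAA and its complement TTC, together called a heat shock element, and raise transcription when unfolded protein builds up in the cytosol. This heat shock response is distinct from the unfolded protein response, which senses the endoplasmic reticulum (ER) and controls the ER chaperones that β cells need to fold proinsulin. Stress-inducible members can also respond to the handling of tissue.

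Within the set, *Hspa1a* and *Hspa1b* encode the stress-inducible HSP70 proteins and *Hspa8* the constitutive one, HSC70. *Dnajb1* encodes an HSP40 co-chaperone that delivers clients to HSP70, while *Hsph1* encodes HSP110 and *Bag3* a co-chaperone, both of which act as nucleotide exchange factors of HSP70. *Hsp90aa1* encodes the inducible cytosolic HSP90, and *Hspb1* a small heat shock protein that holds clients without ATP. *Hspd1* and *Hspe1* encode HSP60 and HSP10, the chamber and the lid of the mitochondrial chaperonin.

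In GRCm38, the build named for the alignment as mm10, *Hspa1a* (ENSMUSG00000091971) lies on the minus strand at chr17:34969190-34972156 and *Hspa1b* (ENSMUSG00000090877) on the same strand at chr17:34956436-34959238. Windows of 100 bases that also occur in a transcript of another gene made up 48.6% of the windows of *Hspa1a* and 49.9% of those of *Hspa1b*, all shared with each other or with *Hspa1l*. RSEM divides such reads by estimate, so the level of either gene is less certain than their sum. The shares for *Hspb1*, *Hsp90aa1*, *Hspa8*, *Hspd1* and *Hspe1* were 44%, 38%, 28.2%, 23.4% and 10%, shared with annotated copies such as *Gm15459*, *Gm12346* and *Hsp25-ps1*, and *Dnajb1*, *Hsph1* and *Bag3* shared none. Of the copies whose rows were looked up, up to 4 for each gene, *Gm15459*, which shares windows with *Hspa8*, had the highest level and reached 31.8 CPM in the first table and 30.5 CPM in the second.

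The upstream sequences of *Hspa1a* and *Hspa1b* are shown first because both genes moved together in every group below. Windows of 250 bases before to 50 bases after the start of transcription were taken from RefSeq (GRCm38.p6) and covered 8 of the 10 genes. The table held no window for *Hspa8* and *Hsp90aa1*. Only the 250 bases before the start are printed here, which lie outside any annotated exon. The stretches are chr17:34972157-34972406 for *Hspa1a* and chr17:34959239-34959488 for *Hspa1b*, both read from the minus strand, and the capitals mark the match to GAANNTTC, a heat shock element of 2 units.
Hspa1a: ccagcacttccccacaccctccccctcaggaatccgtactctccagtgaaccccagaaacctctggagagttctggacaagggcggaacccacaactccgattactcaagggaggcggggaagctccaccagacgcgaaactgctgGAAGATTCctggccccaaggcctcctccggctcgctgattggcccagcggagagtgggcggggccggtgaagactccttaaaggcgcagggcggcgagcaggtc
Hspa1b: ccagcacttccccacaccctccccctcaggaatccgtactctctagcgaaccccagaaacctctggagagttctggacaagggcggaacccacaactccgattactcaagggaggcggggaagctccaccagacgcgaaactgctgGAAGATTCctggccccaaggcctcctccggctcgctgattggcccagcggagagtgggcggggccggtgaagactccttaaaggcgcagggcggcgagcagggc

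Over the whole window of 300 bases, the 2 genes differed at 4 positions and were 98.7% identical. With positions counted from 1 at the 5′ end of the window and the *Hspa1a* base given first, the differences were C44T, T47C, T249G and C276T. The match started 104 bases before the start of transcription in both genes, and none of the differences lay in it. GAANNTTC, a pattern whose reverse complement is itself, was found in 7.86% of all 32851 windows of the table, and TTCNNGAA, the tail-to-tail arrangement, in 8.52%.

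*Hspd1* and *Hspe1* lie head to head on chromosome 1. *Hspe1* (ENSMUSG00000073676) runs from 55088132 to 55091307 on the plus strand and *Hspd1* (ENSMUSG00000025980) from 55077835 to 55088243 on the minus strand. The window of *Hspe1* and a window of *Hspd1*, chr1:55087883-55088182, hold the same element, at chr1:55088059-55088076, read from opposite strands. Another window of *Hspd1*, chr1:55088194-55088493, held no match to any motif used here. The element is shown because it is the longest run of units among the genes' windows. The 30 bases at chr1:55088053-55088082 on the plus strand lie in an untranslated part of an *Hspd1* exon in GENCODE. Capitals mark overlapping matches to the motif of 3 units, in which GAA, TTC and GAA, or on the other strand TTC, GAA and TTC, follow each other with 2 bases of any kind between them. The motif of 2 units is contained in it.
Hspe1: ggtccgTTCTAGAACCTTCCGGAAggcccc

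The element began 89 bases before the start of *Hspe1*. A match of 3 units was found in 0.603% of all windows and in the windows of 3 of the 8 genes, *Hspd1*, *Hspe1* and *Hsph1*, of which the first share 1 element. In *Hsph1* it lay after the start of transcription, at position 16 or 37 depending on the start used. *Hspb1* had GAANNTTC at 117 and 97 bases before its start, given here from the plus strand at chr5:135887789-135887848. *Bag3* had GAANNTTC at position 43 after its start, and neither window of *Dnajb1* held any of these letters. A match describes these letters only, and the binding of a heat shock factor was not measured.
Hspb1: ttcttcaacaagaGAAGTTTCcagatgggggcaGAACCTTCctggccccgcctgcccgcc

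Each library of the first table held 24268157 to 42679645 counts, and each of the second 28618835 to 31887537. In the first table, 2 genes that the annotation does not name took 36.2% to 53.3% of the counts, against 5.40% to 6.49% in the second. Levels are therefore given as CPM, counts scaled to a common library size, after TMM scaling, whose factors were 0.692 to 0.823 in HFD-fed *Pax4* HH mice, 0.890 to 1.11 in HFD-fed *Pax4* WT mice, and 1.05 or more in both SCD groups. The row of *Pax4* held 0 counts in every mouse, below the limit of 3 counts, and does not check the genotypes. The row of *Esr1*, whose human counterpart supplies the hormone-binding part of CreERT2, held 7648 to 9732 counts in the *Pax4*-BiKO mice and 16 to 19 in the Control mice. The 8 β cell markers summed to 42700 to 131000 CPM over all mice, and markers of acinar cells, the enzyme-secreting cells around islets, were present in all of them and uneven. The 25 acinar markers, none at 0 in any group, summed to 38900 to 106000 CPM in HFD-fed *Pax4* HH mice and to 13400 to 26100 CPM in the other 9 mice of the first table. In the second table they summed to 24900 to 113000 CPM in Control mice and to 18000 to 87500 CPM in *Pax4*-BiKO mice. The part of acinar RNA in the results on the heat shock genes was not tested beyond the fit with a covariate given below.

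The genes of HSC70 and cytosolic HSP90 were the most abundant of the set in islets. Per kilobase of exon, *Hspa8* had the highest level in every group, with 280 ± 61.6 CPM per kb (SD, n = 3) in SCD-fed *Pax4* WT mice and 249 ± 19.3 in SCD-fed *Pax4* HH mice. *Hsp90aa1* came next, with 124 ± 17.4 and 107 ± 8.28 CPM per kb, and neither overlapped its neighbours in the order in any of the 6 groups. *Hspa1a*, *Hspa1b* and *Hspd1* followed in 5 of the 6 groups, with 68.4 ± 35, 66.3 ± 36.5 and 41.4 ± 5.84 CPM per kb in SCD-fed *Pax4* WT mice, and overlapped each other. In HFD-fed *Pax4* HH mice the order changed, with *Hspd1* at 36.8 ± 6.14 and *Hspe1* at 28.7 ± 10 CPM per kb standing ahead of *Hspa1b* at 28.6 ± 10.1 and *Hspa1a* at 26.5 ± 8.47, although all these neighbours overlapped. *Dnajb1* and *Hspe1* had 29.8 ± 12.2 and 29.7 ± 4.77 CPM per kb in SCD-fed *Pax4* WT mice. *Hsph1* and *Hspb1* were lower, with 10.3 ± 0.167 and 6.61 ± 2.74 CPM per kb, and *Bag3* had the lowest level of the set in every group, between 0.776 and 2.35 CPM per kb on average.

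**Figure D1:**
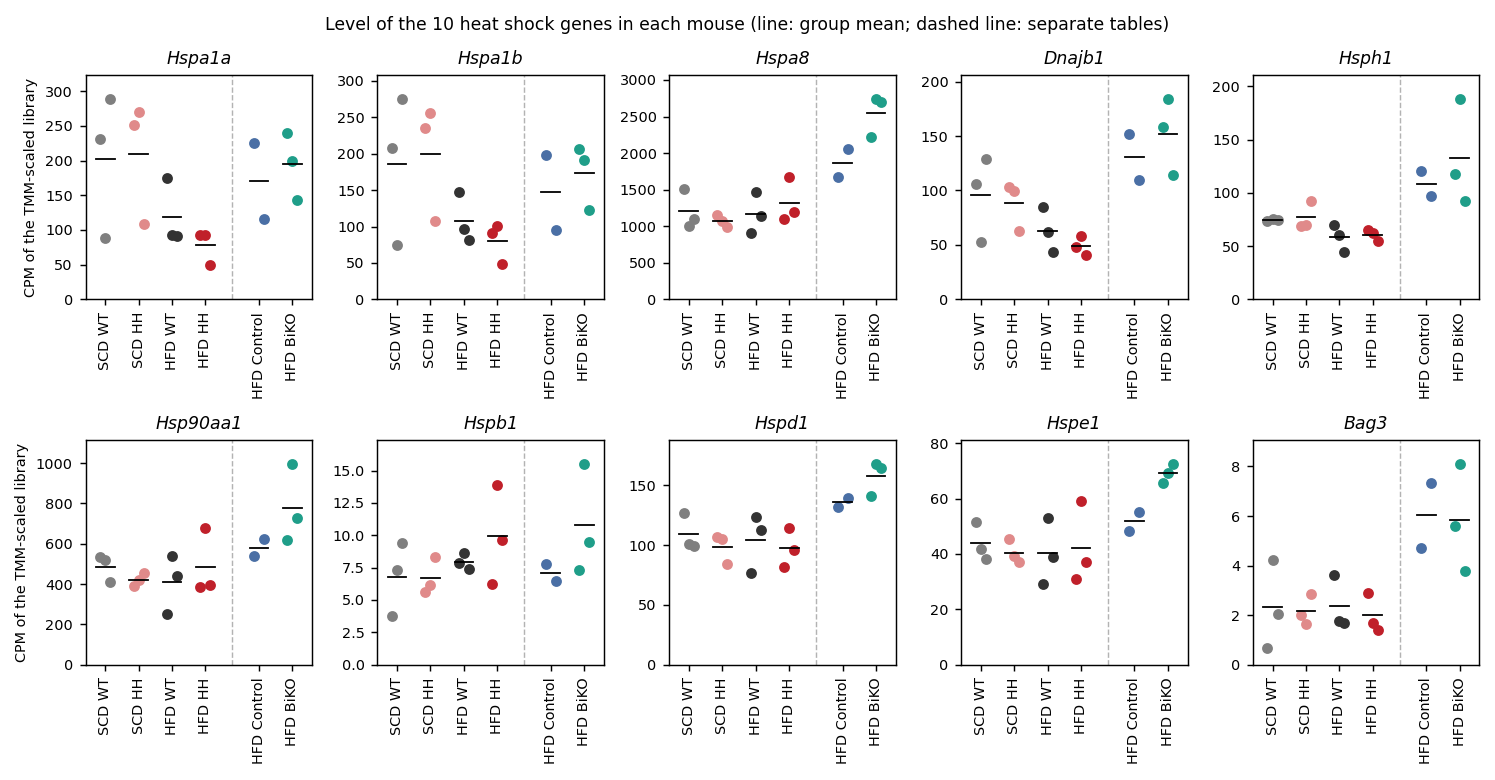
Level of each of the 10 genes in each mouse, in CPM of the TMM-scaled library, with a scale of its own from 0 for each gene. Points are mice, horizontal lines are group means, and the dashed line separates the 2 tables, whose levels are not set against each other. *Hspa1a*, *Hspa1b* and *Dnajb1* spread widely within groups. In the first table their group means are lower on HFD than on SCD, although the second SCD-fed *Pax4* WT mouse lies among the HFD-fed mice. The 3 *Pax4*-BiKO mice lie above both Control mice for *Hspa8*, *Hspd1* and *Hspe1*.

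Mice of the same group differed widely in the inducible HSP70 genes. *Hspa1a* was 231, 87.9 and 289 CPM in the 3 SCD-fed *Pax4* WT mice, 251, 270 and 109 CPM in the SCD-fed *Pax4* HH mice, 175, 92.2 and 91.5 CPM in the HFD-fed *Pax4* WT mice and 92.6, 93.5 and 49.6 CPM in the HFD-fed *Pax4* HH mice. *Hspa1b* was 207, 74.7 and 276 CPM, then 236, 257 and 108 CPM, then 147, 96.2 and 81.3 CPM, and then 91.6, 101 and 48 CPM in the same order. In each SCD group 1 mouse was thus low for both genes, and within SCD-fed *Pax4* WT mice the highest *Hspa1a* level was 3.29 times the lowest. The standard deviation within groups was 0.693 on the log2 scale for *Hspa1a* and 0.704 for *Hspa1b*, against a median of 0.326 over all tested genes. Among the 1001 genes nearest in mean level, these values stood at the 99.5th and 99.6th percentiles.

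*Dnajb1*, the HSP40 partner, followed the inducible HSP70 pair from mouse to mouse. It was 106, 52.5 and 128 CPM in SCD-fed *Pax4* WT mice, 103, 99.9 and 62.8 CPM in SCD-fed *Pax4* HH mice, 84.6, 61.8 and 43.1 CPM in HFD-fed *Pax4* WT mice, and 47.7, 57.8 and 41.1 CPM in HFD-fed *Pax4* HH mice. The mouse with the lowest level was the same for *Hspa1a*, *Hspa1b* and *Dnajb1* in each of the 6 groups. Over the deviations of the 12 mice of the first table from their group means, Pearson's r was 0.99 between *Hspa1a* and *Hspa1b*, 0.931 between *Hspa1a* and *Dnajb1* and 0.946 between *Hspa1b* and *Dnajb1*. These values are a description over mice that share their library scaling with all genes, and *Hspa1a* and *Hspa1b* also share reads. *Dnajb1* shares none with them. *Hspa1a* made up 48.1% to 54.7% of the pair's level in each of the 17 mice.

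Another set of genes, *Hspa8*, *Hsp90aa1* and the mitochondrial pair, also moved together from mouse to mouse. Over the same 12 deviations, r was 0.943 between *Hspa8* and *Hspe1*, 0.908 between *Hspa8* and *Hspd1* and 0.899 between *Hspd1* and *Hspe1*. For *Hsp90aa1* it was 0.874 to *Hspe1*, 0.783 to *Hspd1* and 0.78 to *Hspa8*. Between *Hspa1a* and these genes it was 0.155 for *Hspa8*, -0.000329 for *Hspd1*, -0.0509 for *Hspe1* and -0.338 for *Hsp90aa1*. A mouse could therefore stand high in one set and low in the other. The first HFD-fed *Pax4* WT mouse, for example, was the highest of its group for *Hspa1a*, *Hspa1b* and *Dnajb1* and the lowest for *Hspa8*, *Hsp90aa1*, *Hspd1* and *Hspe1*. *Hsph1*, the HSP110 gene, rose with neither set, with r of 0.016 to *Hspa1a*, -0.256 to *Hspa8* and -0.596 to *Hspd1*. It varied the least of the 10 genes in the first table, with a standard deviation within groups of 0.212. In the second table its standard deviation was 0.449, and *Hspe1* varied the least, with 0.0969. In the first table *Bag3* had the largest standard deviation, 0.783, at levels of 0.674 to 4.24 CPM, and in the second *Hspa1b* had the largest, 0.542. The deviations of *Bag3* in the first table ran against those of *Hspa8*, *Hspd1* and *Hspe1*, with r of -0.746, -0.737 and -0.543.

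**Figure D2:**
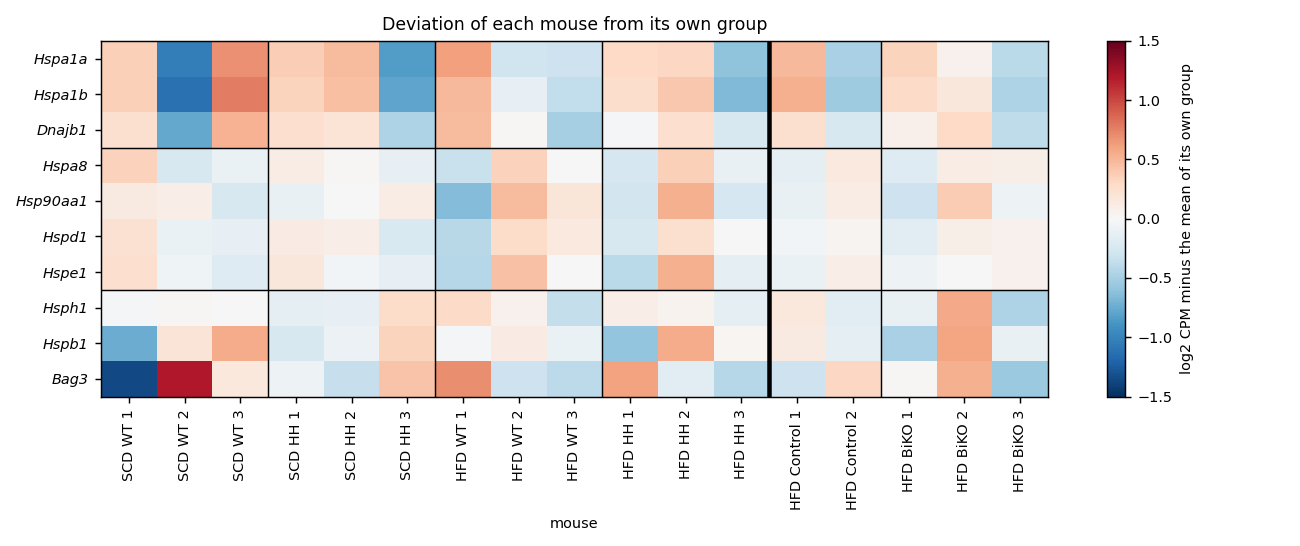
Deviation of each mouse from the mean of its own group, as log2 CPM, for the 10 genes (rows) and 17 mice (columns), with red above and blue below the group mean. Thin lines separate groups and sets of genes, and the thick line separates the tables. The rows of *Hspa1a*, *Hspa1b* and *Dnajb1* share their lowest mouse in every group. The rows of *Hspa8*, *Hsp90aa1*, *Hspd1* and *Hspe1* share another lowest mouse in each HFD group. On SCD the lowest mouse differs among these rows, and in *Pax4* HH mice *Hspa8*, *Hspd1* and *Hspe1* have the same lowest mouse as *Hspa1a*.

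In *Pax4* HH mice, 1 of the inducible HSP70 genes, *Hspa1a*, passed the test between HFD and SCD. *Hspa1a* fell by 1.42 on the log2 scale (SE 0.437, 95% interval -2.36 to -0.48), to 0.374 times its SCD level, with an adjusted p of 0.0400 by edgeR's quasi-likelihood test. All 3 HFD-fed mice, at 49.6 to 93.5 CPM, lay below all 3 SCD-fed mice, at 109 to 270 CPM. It was the only member called, that is with an adjusted p below 0.05 and a change above 0.5 on the log2 scale, in this comparison, in which 15.7% of all tested genes were called and 5.91% were called lower. In these bulk data, fewer cells of a type and less RNA per cell cannot be told apart. The call was lost without any 1 of 5 of the 6 mice compared, namely the first or second SCD-fed mouse or any of the 3 HFD-fed mice, with adjusted p-values of 0.0734 to 0.150 and changes of -1.56 to -1.17. It was also lost when the mean of the acinar markers entered the model (-1.89, adjusted p = 0.299), a measure that rises with HFD in these mice, and when replicates were blocked by their number (-1.41, adjusted p = 0.0528). Other measures moved between the same mice. The 8 β cell markers summed to 48300 to 50300 CPM on SCD and 96900 to 108000 CPM on HFD. Of these, *Ins2*, *Ins1* and *Iapp* were called higher (1.17, 1.01 and 0.87) and *Slc2a2*, the glucose transporter gene, lower (-1.34). *Pdx1* (0.24), *Ucn3* (0.04), *Nkx6-1* (-0.17) and *Mafa* (-0.58) were not called. The markers thus did not rise together, with 5 positive and 3 negative changes and a median of 0.14. Mitochondrially encoded genes took 0.784% to 0.991% of the counts on SCD and 0.337% to 0.463% on HFD. The part of these measures in the change of *Hspa1a* was not tested.

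Of the other members, 3 lay lower in every HFD-fed mouse than in any SCD-fed mouse without passing the threshold. *Hspa1b* changed by -1.32 (SE 0.439, adjusted p = 0.0535 in edgeR) and *Dnajb1* by -0.86 (SE 0.311, adjusted p = 0.0728). *Hsph1* was 68.9, 70.2 and 92.8 CPM on SCD and 64.7, 62.6 and 54.8 CPM on HFD, a change of -0.35 (SE 0.162, adjusted p = 0.154). Non-overlap downward was thus seen for 4 of the 10 members, and for 20.6% of all tested genes. No member was higher in every HFD-fed mouse, against 21.3% of the tested genes. At an unadjusted p below 0.05 stood 4 members, the same 4 genes, and 32.4% of all tested genes.

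*Hspa8*, *Hsp90aa1* and the mitochondrial pair were not called in *Pax4* HH mice, and their groups overlapped. *Hspa8* was 1150, 1080 and 983 CPM on SCD and 1090, 1670 and 1200 CPM on HFD, a change of 0.31 (95% interval -0.16 to 0.77, adjusted p = 0.351 in edgeR). *Hsp90aa1* was 391, 418 and 456 CPM on SCD and 387, 679 and 395 CPM on HFD, where the second mouse stood above the other two. *Hspd1* changed by -0.02 (95% interval -0.43 to 0.38) and *Hspe1* by 0.06 (95% interval -0.46 to 0.58). *Hspb1*, the small heat shock gene, was 5.59, 6.19 and 8.32 CPM on SCD and 6.26, 13.9 and 9.62 CPM on HFD, a change of 0.57 (adjusted p = 0.232). *Bag3* changed by -0.13 (SE 0.536). The median change of the 10 genes was -0.07, beside -0.06 over all tested genes.

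In *Pax4* WT mice none of the 10 genes was called between HFD and SCD, where 0.371% of the tested genes were called. At an unadjusted p below 0.05 there was 1 member, *Hsph1*, and 15.2% of the tested genes. The changes of the inducible genes were negative, at -0.77 for *Hspa1a* (SE 0.430, adjusted p = 0.420), -0.78 for *Hspa1b* (SE 0.434, adjusted p = 0.413) and -0.60 for *Dnajb1* (SE 0.309, adjusted p = 0.380) in edgeR's test. Their groups overlapped, because 1 SCD-fed mouse had 87.9 CPM of *Hspa1a*. *Hsph1* was 73.4, 75.8 and 74.7 CPM on SCD and 70, 60.2 and 44.9 CPM on HFD, a change of -0.35 (SE 0.162, adjusted p = 0.320). It was the only member whose groups did not overlap, against 9.46% of tested genes in that direction and 8.47% in the other. The median change over the 10 genes was -0.19, beside 0.01 over all tested genes. Markers of cell types moved between the same mice. Of 10 macrophage markers 9 had negative changes, and *Lyz2* (-2.23) and *Ptprc* (-1.90) were called lower. Of 10 stromal markers 9 had negative changes (median -1.69), and all 8 β cell markers had positive ones (median 0.32), with none called. The part of these cells in the changes of the members was not tested.

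**Figure D3:**
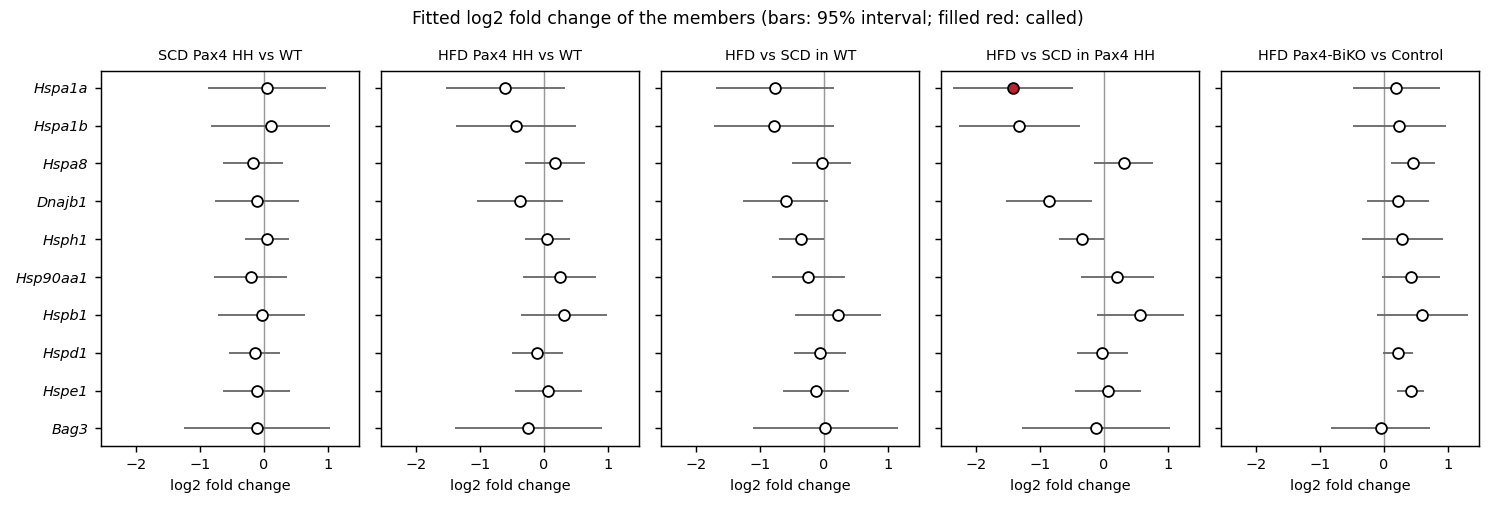
Fitted log2 fold change of each of the 10 genes in 5 comparisons, with 95% intervals as bars. The filled red point marks the single call, *Hspa1a* on HFD against SCD in *Pax4* HH mice at -1.42, and open points were not called. The intervals of *Hspa8* and *Hspe1* in *Pax4*-BiKO against Control mice lie above 0, although neither gene passed the adjusted threshold.

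The difference between the genotypes in the response to diet was tested by the interaction term, which called no member, while 0.131% of all tested genes were called. No member reached an unadjusted p below 0.05, against 11.2% of the tested genes. The term was -0.66 for *Hspa1a* (SE 0.607, 95% interval -1.96 to 0.65, adjusted p = 0.735 in edgeR) and -0.54 for *Hspa1b* (95% interval -1.86 to 0.77). The fall of *Hspa1a* in *Pax4* HH mice was therefore not shown to differ from the change in *Pax4* WT mice. The largest positive term was 0.45 for *Hsp90aa1* (95% interval -0.35 to 1.26, adjusted p = 0.701), which ran from 0.14 to 0.70 with 1 library left out. The median over the 10 genes was 0.02.

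Between the genotypes on SCD, no member was called, and 0% of the tested genes were. At an unadjusted p below 0.05 there were 629 genes, or 3.29%, and none of the 10. Changes ran from -0.21 for *Hsp90aa1* to 0.11 for *Hspa1b*, and every adjusted p was 1 in edgeR's test. DESeq2 called none of the 10 genes either. For the steadier genes the interval was narrow, from -0.30 to 0.40 for *Hsph1* and from -0.55 to 0.26 for *Hspd1*, whereas for *Hspa1a* it ran from -0.87 to 0.97. No member was without overlap between the genotypes, against 3.62% of tested genes upward and 4.22% downward.

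On HFD, *Pax4* HH and *Pax4* WT mice did not differ beyond the threshold in any member, while 2.28% of all tested genes were called. The largest difference was that of *Hspa1a*, at -0.60 (SE 0.431, 95% interval -1.53 to 0.32, adjusted p = 0.544 in edgeR). *Hspa1a* was 92.6, 93.5 and 49.6 CPM in *Pax4* HH mice and 175, 92.2 and 91.5 CPM in *Pax4* WT mice, so the groups overlapped. *Hspa1b* differed by -0.43 and *Dnajb1* by -0.37, while *Hspb1* differed by 0.32, *Hsp90aa1* by 0.25 and *Hspa8* by 0.17. *Hspa8* was 1090, 1670 and 1200 CPM in *Pax4* HH mice and 912, 1460 and 1150 CPM in *Pax4* WT mice. The mitochondrial pair differed by -0.10 for *Hspd1* (95% interval -0.51 to 0.30) and 0.07 for *Hspe1* (95% interval -0.45 to 0.59). Of the 10 genes, 5 had positive and 5 negative differences, none had groups without overlap, and the median was -0.02 beside -0.01 over all tested genes. Non-overlap was seen for 13% of tested genes upward and 9.89% downward, and 15.9% of the tested genes but no member had an unadjusted p below 0.05.

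In the second table, all members but *Bag3* had higher mean levels in *Pax4*-BiKO than in Control islets, and none was called, against 0.0893% of all tested genes. *Hspa8* and the mitochondrial pair had the smallest spread within groups. *Hspa8* was 1680 and 2060 CPM in the 2 Control mice and 2220, 2740 and 2700 CPM in the 3 *Pax4*-BiKO mice, a difference of 0.45 on the log2 scale (SE 0.146, unadjusted p = 0.0157, adjusted p = 0.293 in edgeR). *Hspe1* was 48.4 and 55.1 CPM in Control mice and 65.6, 69.3 and 72.5 CPM in *Pax4*-BiKO mice, a difference of 0.42 (SE 0.0918, unadjusted p = 0.00204, adjusted p = 0.193 in edgeR). *Hspd1* was 132 and 140 CPM against 141, 168 and 165 CPM, a difference of 0.22 (SE 0.0991, adjusted p = 0.408). These 3 genes were higher in every *Pax4*-BiKO mouse than in both Control mice, as were 15.9% of all tested genes, while 16.7% were lower in every one. *Hspa8* and *Hspe1* were the 2 members with an unadjusted p below 0.05, a level that 12.8% of the tested genes reached.

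*Hsp90aa1* was 537 and 625 CPM in Control mice and 617, 996 and 726 CPM in *Pax4*-BiKO mice, a difference of 0.42 (SE 0.197, adjusted p = 0.415 in edgeR), with 1 *Pax4*-BiKO mouse below the higher Control mouse. *Hspb1* differed by 0.60 (SE 0.305, adjusted p = 0.453), at 7.81 and 6.43 CPM against 7.28, 15.5 and 9.5 CPM. The inducible HSP70 genes overlapped widely. *Hspa1a* was 225 and 115 CPM in Control mice and 241, 200 and 144 CPM in *Pax4*-BiKO mice, a difference of 0.19 (95% interval -0.48 to 0.87). *Hspa1b* was 199 and 95.6 CPM against 207, 191 and 123 CPM, and *Dnajb1* was 152 and 109 CPM against 158, 184 and 114 CPM. As in the first table, the mouse lowest for one of these genes was the lowest for the others. *Hsph1* was 121 and 96.6 CPM against 117, 188 and 91.9 CPM, and *Bag3* was 4.72 and 7.33 CPM against 5.62, 8.1 and 3.77 CPM, a difference of -0.05. The median difference of the 10 genes was 0.26, beside 0.01 over all tested genes. It was 0.17 without the second *Pax4*-BiKO mouse, 0.40 without the third and 0.42 in the fit blocked by replicate number. Without the second *Pax4*-BiKO mouse, *Hspb1* differed by 0.23 and *Hsp90aa1* by 0.20. With 2 Control mice, 1 of which had 113000 CPM of summed acinar markers, the spread of this group rests on very few values.

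The other genes of the cytosolic and mitochondrial folding systems were counted next, with the ER chaperones beside them. On HFD against SCD in *Pax4* HH mice, 4 of 22 further HSP70-system genes rose and 1 fell, in a comparison in which 15.7% of all tested genes were called. Those that rose were *Bag1* (0.62) and *Hspbp1* (0.55), nucleotide exchange factors of HSP70, *Stub1* (0.57), the ubiquitin ligase CHIP, and *Dnaja4* (0.55), an HSP40 gene named here after its value was seen. The one that fell was *Dnaja1*, an HSP40 gene, at -0.65 (adjusted p = 0.0157 in edgeR). Of 13 further HSP90-system genes, *Fkbp4* (0.62) and *Cdc37* (0.58), both HSP90 co-chaperones, rose, a share near that of all tested genes. *Hsbp1*, the heat shock factor binding protein, rose by 0.51 among 4 heat shock factor genes, and *Hspb6* by 1.46 among the 4 tested small heat shock genes of 9, whose median was 0.76. None of 12 further mitochondrial chaperone and protease genes was called (*Clpp* 0.56, adjusted p = 0.0503), nor any of 14 genes of the cytosolic chaperonin TRiC and prefoldin (*Pfdn5* 0.48, adjusted p = 0.0320, below the size threshold).

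The ER chaperones had the largest median change of the chaperone lists tested on this scale in both comparisons of HFD-fed *Pax4* HH mice. Against SCD, 12 of 14 rose, beside 15.7% of all tested genes called in either direction, with a median of 1.07, led by *Creld2* (2.55), *Sdf2l1* (1.80), *Dnajb11* (1.40) and *Manf* (1.24). Between *Pax4* HH and *Pax4* WT mice on HFD, 7 of 14 rose, beside 2.28% of all tested genes called, with a median of 0.79, led by *Creld2* (1.66), *Sdf2l1* (1.21), *Pdia6* (0.95) and *Hspa5* (0.88), the last of which encodes the ER HSP70 BiP. In that comparison none of the 22, 13, 4, 4, 12 and 14 further genes tested of the HSP70, HSP90, heat shock factor, small heat shock, mitochondrial and TRiC lists was called, and their smallest p-values belonged to *Hspa13*, *Fkbp5*, *Hsbp1*, *Cryab*, *Clpp* and *Pfdn5*, with adjusted p-values of 0.149 to 0.560. Acinar markers were called higher in the same comparisons, 8 of 25 between the genotypes on HFD and 23 of 25 between the diets in *Pax4* HH mice. Within groups the sums of both lists had no common order. The mouse with the highest acinar sum had the lowest ER chaperone sum in 3 groups (SCD-fed and HFD-fed *Pax4* HH and Control mice), the highest in 2 (HFD-fed *Pax4* WT and *Pax4*-BiKO mice) and the middle one in SCD-fed *Pax4* WT mice. Between *Pax4*-BiKO and Control mice all 25 acinar markers had negative changes (median -0.67) and all 14 ER chaperones positive ones (median 0.43), with none called. Acinar cells also express ER chaperones at high levels, and the part of these cells in the ER chaperone counts was not tested.

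**Figure D4:**
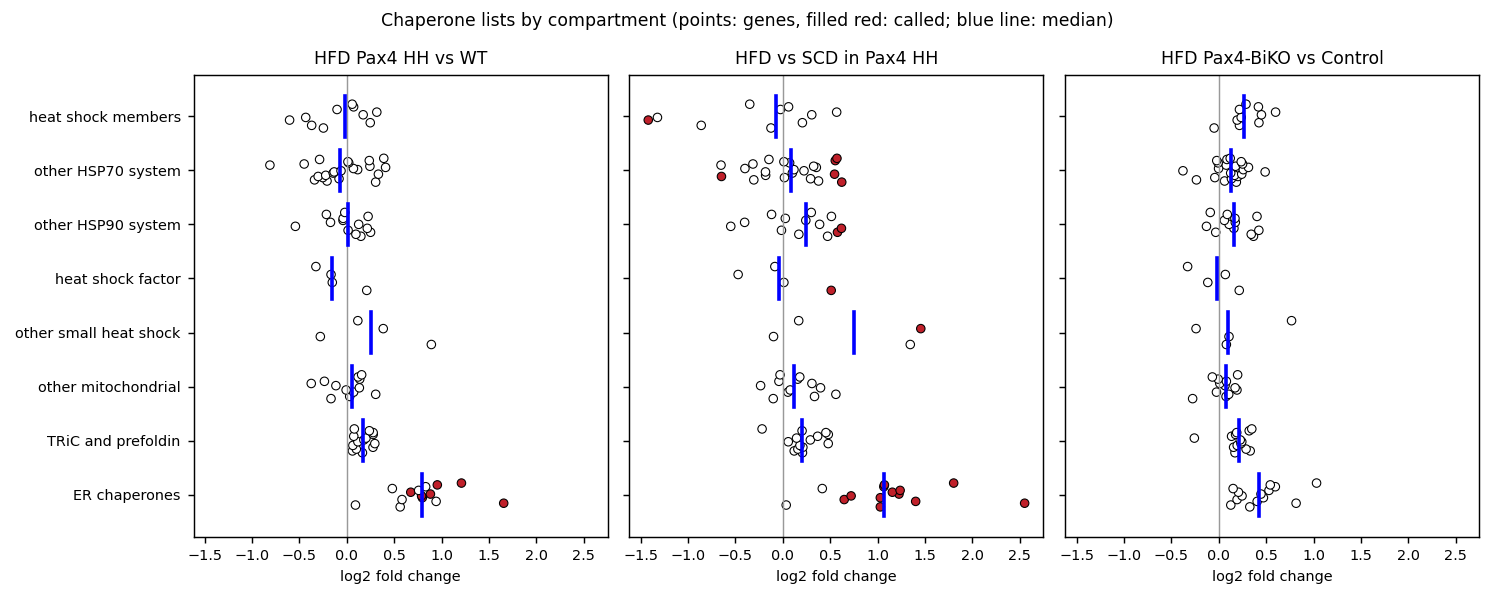
Log2 fold change of the 10 heat shock genes and of 7 further lists of chaperone and heat shock factor genes in 3 comparisons. Each point is a gene that passed the low-count filter, filled red where called, and blue lines are medians. The ER chaperones have medians of 0.79 and 1.07 in the first and second panels and 0.43 with no call in the third. The small heat shock genes, of which 4 were tested, have 0.25, 0.76 and 0.09, and the medians of the other lists lie between -0.16 and 0.26.

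In *Pax4*-BiKO against Control mice, no gene of any of these lists was called. The genes of smallest p were *Sdf2l1* (1.03, adjusted p = 0.144 in edgeR) among ER chaperones, whose median was 0.43, *Dnajb4* (0.49, adjusted p = 0.256) in the HSP70 list, *Ahsa1* (0.37, adjusted p = 0.282) in the HSP90 list, *Hspb8* (0.77, adjusted p = 0.213) among small heat shock genes, *Afg3l2* (-0.28, adjusted p = 0.275) in the mitochondrial list, *Tcp1* (0.32, adjusted p = 0.243) in the TRiC list and *Hsbp1* (0.22, adjusted p = 0.367) among heat shock factor genes. On SCD between the genotypes and for the interaction none was called either. The smallest p-values on SCD belonged to *Hsbp1*, *Hspa1l*, *Ptges3*, *Hspb6*, *Clpx*, *Pfdn4* and *Hspa5*, each with an adjusted p of 1, and those of the interaction to *Hsbp1*, *Hspa1l*, *Stip1*, *Cryab*, *Clpx*, *Pfdn5* and *Creld2*, with *Creld2* at 1.82 and an adjusted p of 0.0577. In the diet comparison of *Pax4* WT mice none was called, and the smallest p-values were those of *Hsf2*, *Dnajc7*, *Unc45a*, *Hspb8*, *Clpb*, *Vbp1* and *Hyou1* (0.50, adjusted p = 0.113).

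Immediate early genes, which rise within minutes of stimulation or tissue handling, were summed as a measure that can move with the inducible heat shock genes. The 17 genes summed to 1250 to 1410 CPM in SCD-fed *Pax4* WT mice, 826 to 1120 CPM in SCD-fed *Pax4* HH mice, 655 to 1390 CPM in HFD-fed *Pax4* WT mice and 694 to 963 CPM in HFD-fed *Pax4* HH mice. In the diet comparison of *Pax4* HH mice, *Fosb* fell by 1.03 and *Jund* rose by 0.69 among 16 tested, beside 15.7% of all tested genes called, and 13 of the 16 changes were negative (median -0.33). In the other comparisons no immediate early gene was called. For the diet in *Pax4* WT mice, where the changes of *Hspa1a*, *Hspa1b* and *Dnajb1* were also negative, 14 of 16 were negative (median -0.51). At an unadjusted p below 0.05 in edgeR's test were 6, beside 15.2% of all tested genes. Between the genotypes on SCD, 15 of 16 were negative (median -0.48), and 3 had such a p, beside 3.29% of all tested genes. There *Hspa1a* and *Hspa1b* had positive changes (0.05 and 0.11) and *Dnajb1* a negative one (-0.11). Between the genotypes on HFD 13 of 16 were negative (median -0.18), and in the interaction 13 of 16 were positive (median 0.27). In the second table the sums were 1510 to 2330 CPM in Control mice and 1660 to 2160 CPM in *Pax4*-BiKO mice. In the comparisons without a call, the smallest p-values were those of *Junb* on SCD (-0.81) and on HFD (-0.74), *Klf6* in the diet comparison of *Pax4* WT mice (-0.99), *Jund* in the interaction (0.63) and *Nr4a1* in *Pax4*-BiKO mice (-0.45). Within groups the sums had no common order with *Hspa1a*. The mouse lowest for *Hspa1a* had the highest sum in SCD-fed *Pax4* WT and HFD-fed *Pax4* HH mice. It had the lowest sum in SCD-fed *Pax4* HH, HFD-fed *Pax4* WT and Control mice, and the middle one in *Pax4*-BiKO mice. The part of tissue handling in the levels of *Hspa1a*, *Hspa1b* and *Dnajb1* was not tested.

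Genes were sought that followed the mean of the standardized log2 CPM of the 10 genes over the 12 mice of the first table. This mean joins genes that did not all move together, so it is not a pattern that each member shares. The 5 tested genes outside the set with the highest Pearson's r were *Rab9* (0.914, Spearman's rho 0.853), *Npl* (0.865), *Gm12174* (0.855), *Stk26* (0.836) and *H2-Q6* (0.83). They are the highest values among all tested genes, and these r are given as a description. *Npl* and *Gm12174* had mean levels of 0.222 and 0.248 CPM, so that few counts stand behind them. *H2-Q6* was also low, at 0.313 to 3.47 CPM.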

How the data were processed

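Libraries were prepared from TRIzol-extracted islet RNA with the TruSeq Stranded Total RNA LT kit and sequenced as paired ends. The authors aligned the reads to mm10 with STAR 2.7.1, quantified genes with RSEM 1.3.3 and summarized them with tximport. The release of their annotation is not given in the sources used here. The deposited values are estimated counts per gene, not normalized, and were rounded to whole numbers.

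Each table was tested separately in edgeR 4.0.16 (R 4.3.3) with TMM scaling, filterByExpr at a minimum count of 10, 1 coefficient per group and the quasi-likelihood test, which left 19137 and 20167 genes. Log2 fold changes and Benjamini-Hochberg adjusted p-values come from this fit. Members were called at an adjusted p below 0.05 and an absolute change above 0.5. Intervals are 95%. DESeq2 1.42.0 was an alternative. The tests were checked on simulated data with 200 changed genes. Log2 CPM values for the spread, the correlations and the likeness used a prior count of 2. Gene names, positions and exon lengths were taken from GENCODE M21, which matched 65.8% and 66.7% of the identifiers, including all 10 members.

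The limit of 3 counts was 7.03e-06% to 1.24e-05% of a library and covers counting error only. The members and the gene lists were chosen with earlier results of these data known. From each other list, up to 4 called genes of the largest absolute change were named, or the gene of the smallest p where none was called. The alternatives were RLE size factors, no filter, a filter of at least 10 counts in every library, the replicate number as a block, DESeq2, only the groups compared, *Hspa1a* and *Hspa1b* summed, the 2 largest rows left out, an acinar covariate, and each library left out in turn.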

Additional observations from a re-analysis of the deposited data

How the results depend on the processing

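The members' median change was near 0 in most comparisons, has no test, and its sign turned in 4 of them. With 1 library left out it ran from -0.18 to 0.0072 between the genotypes on SCD, -0.19 to 0.058 between them on HFD, -0.065 to 0.11 in the interaction and -0.20 to 0.036 for the diet in *Pax4* HH mice. Under the other settings it ran from -0.042 to 0.056 between the genotypes on HFD. For the diet in *Pax4* WT mice it stayed between -0.37 and -0.12 in all settings run, and in *Pax4*-BiKO mice between 0.17 and 0.42. Of the counts of members called, 43 of the 52 other settings gave the main count. Without a filter on low counts, 1 member was called between the genotypes on HFD (*Hspa1a*, adjusted p = 0.0121 in edgeR), 3 for the diet in *Pax4* WT mice (*Hspa1a*, *Hspa1b* and *Dnajb1*), 3 for the diet in *Pax4* HH mice and 1 in *Pax4*-BiKO mice (*Hspb1*); the cause was not tested. For the diet in *Pax4* HH mice, where the main count was 1, the count was 3 with at least 10 counts in every library, 3 with only the 2 groups in the model, 2 in DESeq2 (*Hspa1a* and *Dnajb1*) and 0 with the acinar covariate. It ran from 0 to 3 with 1 library left out, being 3 without the second SCD-fed *Pax4* WT mouse and 2 without the third SCD-fed *Pax4* HH or the first HFD-fed *Pax4* WT mouse. Leaving out a Control mouse left 1, which was assumed to vary like the *Pax4*-BiKO mice.

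With the replicate number as a block, the count for the diet in *Pax4* HH mice was 0 (*Hspa1a* adjusted p = 0.0528 in edgeR), and the signs of *Hspb1* (0.027) and *Hspa1a* (-0.0089) on SCD and of *Bag3* in *Pax4*-BiKO mice (0.20) turned. Correlations of same-numbered deviations ran from -0.296 to 0.193, and not every mouse correlated best with its own number. The deviations of a group sum to 0 over very few mice, so these correlations cannot decide whether the numbers pair the mice. The block changed no other call.

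Other signs also turned, among changes that were not called. With the acinar covariate these were *Hspd1* (0.17) and *Hsph1* (-0.20) between the genotypes on HFD, *Hsph1* in the interaction (-0.26), *Bag3* for the diet in *Pax4* WT mice (-0.070) and *Hspd1* for the diet in *Pax4* HH mice (0.31). *Hsph1* in the interaction was -0.00047 with at least 10 counts in every library and -0.0059 without the 2 largest rows, and *Bag3* for the diet in *Pax4* WT mice was -0.021 with at least 10 counts. With 1 library left out, the following changes kept their sign but moved by over 1.5 times. Between the genotypes on SCD, *Hsp90aa1* ran from -0.30 to -0.13 and *Hspd1* from -0.19 to -0.013. Between them on HFD, *Hspa1a* ran from -0.76 to -0.23, *Hspa1b* from -0.63 to -0.15 and *Dnajb1* from -0.58 to -0.10. In the interaction, *Hspa1a* ran from -1.004 to -0.28, *Hspa1b* from -0.94 to -0.16, *Hspb1* from 0.034 to 0.66, *Hspa8* from 0.14 to 0.53 and *Hsp90aa1* from 0.14 to 0.70. With HFD in *Pax4* WT mice, *Hspa1a* ran from -1.14 to -0.40, *Hspa1b* from -1.16 to -0.36, *Dnajb1* from -0.89 to -0.31 and *Hsph1* from -0.51 to -0.20. With HFD in *Pax4* HH mice, *Hspb1* ran from 0.25 to 0.82, *Hspa8* from 0.10 to 0.43 and *Hsph1* from -0.39 to -0.20. In *Pax4*-BiKO mice, *Hspb1* ran from 0.23 to 0.81, *Dnajb1* from 0.0013 to 0.48 and *Hsp90aa1* from 0.20 to 0.57. The signs of further changes turned. Between the genotypes on SCD they ran from -0.32 to 0.29 for *Hspb1*, -0.40 to 0.19 for *Dnajb1*, -0.29 to 0.028 for *Hspa8*, -0.10 to 0.13 for *Hsph1*, -0.52 to 0.66 for *Bag3*, -0.19 to 0.029 for *Hspe1*, -0.27 to 0.54 for *Hspa1b* and -0.31 to 0.43 for *Hspa1a*. Between the genotypes on HFD they ran from -0.0017 to 0.56 for *Hspb1*, -0.033 to 0.36 for *Hspa8*, -0.071 to 0.50 for *Hsp90aa1*, -0.28 to 0.036 for *Hspd1*, -0.10 to 0.21 for *Hsph1*, -0.62 to 0.21 for *Bag3* and -0.24 to 0.32 for *Hspe1*. In the interaction they ran from -0.54 to 0.031 for *Dnajb1*, -0.14 to 0.18 for *Hspd1*, -0.15 to 0.16 for *Hsph1*, -0.91 to 0.31 for *Bag3* and -0.13 to 0.43 for *Hspe1*. For the diet in *Pax4* WT mice they ran from -0.065 to 0.54 for *Hspb1*, -0.22 to 0.16 for *Hspa8*, -0.49 to 0.013 for *Hsp90aa1*, -0.20 to 0.12 for *Hspd1*, -0.43 to 0.79 for *Bag3* and -0.37 to 0.067 for *Hspe1*. For the diet in *Pax4* HH mice they ran from -0.11 to 0.35 for *Hsp90aa1*, -0.15 to 0.092 for *Hspd1*, -0.50 to 0.11 for *Bag3* and -0.25 to 0.25 for *Hspe1*. In *Pax4*-BiKO mice they ran from -0.056 to 0.49 for *Hsph1*, -0.37 to 0.31 for *Bag3*, -0.19 to 0.86 for *Hspa1b* and -0.21 to 0.75 for *Hspa1a*.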
